A study of Mus musculus with 15 samples.

Results

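Malat1, Neat1, Rn7sk, Gas5 and Snhg1 are mouse genes whose RNA products are not translated into protein and act in the nucleus or carry small nucleolar RNAs in their introns. Their probe sets were found by gene symbol in the platform annotation: of the 5 genes, 3 had probe sets of their own, Malat1 with 1, Rn7sk with 2 and Gas5 with 4, or 7 of the 35557 probe sets on the array. Neat1 and Snhg1 had 0 probe sets under their own symbol, so no value is given for them, and 1 probe set that lists Malat1 together with another gene was left out. The genes were chosen on levels seen in these same 15 arrays, and which contrast decided the choice is not recorded, so the values of the 7 probe sets are a description. No p-value is given for them, and where a count of calls stands beside the share over all probe sets it is no evidence.

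The arrays hold 4 groups. Metanephric mesenchyme (MM) cells, 4 in number, were picked singly at embryonic day 11.5 from kidneys of mice with the Tg(Crym-EGFP)GF82Gsat transgene, sex unknown. Juxtaglomerular (JG) cells, 5 in number, were picked singly next to glomeruli of adult male mice with the Ren1c-YFP reporter, whose protocol text also names a Ren1d GFP line. Adult renal cortex of Ren1c-YFP males, with its mixed cell types, was taken as 3 diluted libraries put through the same single cell amplification (32 rounds recorded) and as 3 standard-labelled libraries made with a NuGEN kit (1 round recorded). The strain is unspecified in all groups. Since the labels tie no cell to an animal, the cells of a group are treated as 1 sample without a test, and their SD is a spread over cells.

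Malat1 is a long RNA kept in the nucleus, where it sits in nuclear speckles, the stores of splicing factors, and Neat1, its neighbour in the genome, is the scaffold of paraspeckles. Rn7sk, or 7SK, is a short RNA made by RNA polymerase III that, with the proteins Larp7, Mepce and Hexim1, holds the elongation kinase P-TEFb inactive. Gas5 and Snhg1 are host genes: small nucleolar RNAs, which guide modification of ribosomal RNA, are cut from their introns, while the spliced remainder is degraded by nonsense-mediated decay when it is translated. Like ribosomal protein mRNAs, RNAs of this host class begin with a tract of pyrimidines.

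The start sites in RefSeq (assembly GRCm38.p6) are shown for Malat1 and Gas5 because of that tract. Each window runs from 30 bases before to 30 bases after the boundary of an annotated start, 5′ to 3′ on the transcript's strand, with the longest run of C and T that lies within 10 bases of the start in capitals. Malat1 lies on the minus strand, window chr19:5802643-5802702, and Gas5 on the plus strand with 2 listed starts, windows chr1:161034571-161034630 and chr1:161035136-161035195.
Malat1: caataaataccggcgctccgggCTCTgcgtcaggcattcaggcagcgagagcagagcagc
Gas5 first start: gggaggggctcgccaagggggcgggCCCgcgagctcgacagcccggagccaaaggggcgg
Gas5 second start: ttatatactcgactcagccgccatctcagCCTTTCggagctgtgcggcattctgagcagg
The run was 4 bases at Malat1, 3 bases at the first and 6 bases at the second Gas5 start. Of 32851 windows in the RefSeq promoter table, 44.9% held a run of at least 5 bases on the transcript's strand. That share counts runs anywhere within 10 bases of the start, while the run at the second Gas5 start spans the start itself. Runs near a start are thus common, but the share cannot decide whether this one is a tract. Nothing is read from the windows on a difference between Gas5 and Malat1. Snhg1, whose window is not shown, held a run of 9 bases from base 5 of the transcript. Runs of that length were held by 9.55% of windows. No promoter of Rn7sk or Neat1 is shown.

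Values are log2 probe set signals. Signal in a cell or library was set beside the 99th percentile of 1210 olfactory and vomeronasal receptor probe sets on the same array, called the receptor level here, as a mark of background. This level lay between 6.18 and 6.51 on the cortex arrays, between 7.13 and 7.56 on those of MM cells and between 7.55 and 7.92 on those of JG cells. Of probe sets with 1 gene symbol, 44.3% to 50.1% exceeded it in a cortex library, 11.6% to 21.9% in an MM cell and 7.23% to 14.6% in a JG cell. Levels of different probe sets cannot be set against each other, so each is described across arrays. All 5 proximal tubule markers exceeded it in every cortex library. Ren1 and Akr1b7 have no probe set of their own, so the identity of the JG cells was checked on Rgs5, Gja4 and Acta2 only. Of these, 2, 0, 2, 3 and 2 exceeded the receptor level in JG cells 4 to 8. In each MM cell 0 did, in each diluted library 3 and in each standard-labelled library 2 to 3. These markers thus do not mark JG cells alone among the arrays. Of 6 mesenchyme markers, 4, 3, 4 and 2 exceeded it in MM cells 14, 15, 16 and 19, against 1 to 3 in JG cells, 4 in each diluted and 2 to 4 in each standard-labelled library, so this list does not mark MM cells alone.

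Malat1 was bright in standard-labelled cortex and dim everywhere else. Probe set 10465244 measured 11.96, 11.62 and 11.91 in standard-labelled libraries A, B and C, at the 97.3rd to 98.1st percentile of all probe sets on those arrays. In diluted libraries A, B and C it measured 4.44, 4.32 and 4.32, at percentiles 21.9 to 24.3. No diluted library came near a standard-labelled one: the lowest standard-labelled value stood 7.18 above the highest diluted value.

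Single cells resembled the diluted cortex in this. Malat1 measured 5.35, 5.22, 5.56 and 4.99 in MM cells 14, 15, 16 and 19. It measured 5.28, 6.30, 5.96, 5.17 and 5.69 in JG cells 4 to 8. All 9 cells and all 3 diluted libraries lay below the receptor level of their own array, so their order carries no level of Malat1. In that order JG cells (mean 5.68 ± 0.47, SD over 5 cells) and MM cells (5.28 ± 0.24, SD over 4 cells) overlapped, and both lay above diluted cortex (4.36 ± 0.07, SD, n = 3), where receptors were lower as well, by 1.02 than in JG cells and by 0.81 than in MM cells. Beyond these shifts Malat1 differed from diluted cortex by 0.30 in JG and 0.11 in MM cells.

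Both Rn7sk probe sets were bright in standard-labelled cortex. Probe set 10426437 measured 12.54, 12.66 and 12.61 and probe set 10595140 measured 12.38, 12.60 and 12.58 in libraries A, B and C. In diluted libraries the first measured 6.01, 6.33 and 6.49 and the second 3.86, 4.86 and 4.22. Both probe sets thus separated the labelling methods without overlap, and both fell from above the 99th percentile of their arrays, or at it, to percentiles of 14.8 to 62.6.

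In single cells the 2 Rn7sk probe sets did not give the same picture. Probe set 10426437 measured 8.21, 8.03, 8.17, 8.09 and 8.25 in JG cells 4 to 8, above the receptor level in all 5 by 0.11 to 0.70. In MM cells 14, 15, 16 and 19 it measured 7.85, 7.09, 8.31 and 7.08, above the receptor level in cells 14 and 16. Against the single brightest receptor probe set in place of the 99th percentile, 0 JG cells, 0 MM cells and 0 diluted libraries exceeded it. Probe set 10595140 measured 5.81, 4.88, 4.89, 4.34 and 4.41 in JG cells 4 to 8 and 4.24, 4.37, 5.00 and 4.03 in MM cells 14, 15, 16 and 19, below the receptor level throughout. The genome holds many near-identical copies of 7SK, so signal of either probe set may come from more than the 1 gene, and detection of Rn7sk in cells rests on 1 of 2 probe sets.

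Gas5 exceeded the receptor level in more groups than Malat1 did. Probe set 10351026 measured 13.12, 12.88 and 13.01 in standard-labelled libraries A, B and C, and 10.92, 10.49 and 10.67 in diluted ones. In MM cells 14, 15 and 19 it measured 12.04, 12.83 and 11.56, while MM cell 16 measured 7.56, which equals the receptor level of its array to 2 decimals. In JG cells 4 to 8 it measured 6.68, 6.63, 5.42, 6.53 and 6.61, below the receptor level in all 5. The order of the groups was standard-labelled cortex (13.01 ± 0.12, SD, n = 3), MM cells (11.00 ± 2.35, SD over 4 cells), diluted cortex (10.69 ± 0.21, SD, n = 3) and JG cells (6.37 ± 0.53, SD over 5 cells). MM cells and diluted cortex overlapped, and JG cells overlapped with no other group.

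**Figure D1:**
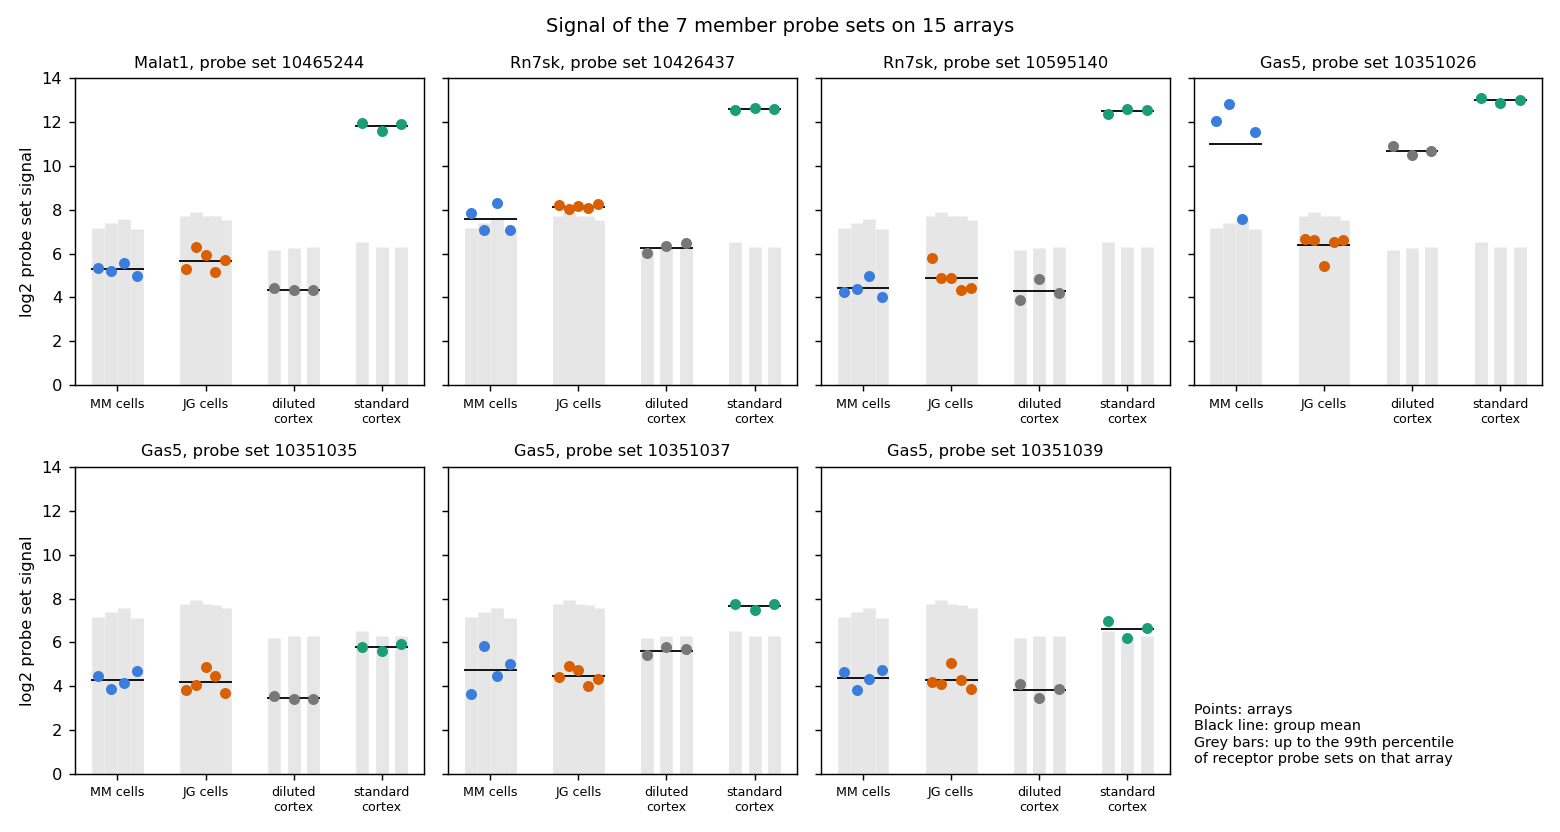
Log2 signal (vertical axis) of each of the 7 probe sets in MM cells, JG cells, diluted and standard-labelled cortex (horizontal axis); points are arrays, black lines group means, and grey bars reach up to the receptor level of each array. Malat1 and both Rn7sk probe sets stand at 11.62 to 12.66 in standard-labelled cortex and at 8.31 or less elsewhere, while Gas5 probe set 10351026 is high in all groups but JG cells and low in MM cell 16.

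The other 3 Gas5 probe sets stayed below the receptor level in all MM cells. Probe set 10351037 measured 7.73, 7.46 and 7.73 in standard-labelled libraries A, B and C and 5.40, 5.77 and 5.70 in diluted ones, while MM cells ranged from 3.63 to 5.81 and JG cells from 4.02 to 4.94. Probe set 10351039 measured 6.96, 6.20 and 6.66 in standard-labelled libraries, 3.48 to 4.10 in diluted ones, 3.83 to 4.73 in MM and 3.88 to 5.05 in JG cells. Probe set 10351035 measured 5.62 to 5.91, 3.39 to 3.53, 3.85 to 4.69 and 3.68 to 4.88 in the same order of groups. Only standard-labelled libraries exceeded the receptor level on these 3 probe sets, 3 of 3 with 10351037, 2 of 3 with 10351039 and 0 of 3 with 10351035. In MM cell 15, where 10351026 reached 12.83, these 3 read 3.83 to 5.81. Where on the gene each of the 4 probe sets lies is not given in the annotation used here.

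The cortex comparison asks how dilution and single cell amplification change the profile of the same tissue. In tissue libraries, fewer cells of a type and less RNA per cell cannot be told apart. Rn7sk probe set 10595140 was 8.21 lower in diluted cortex (log2 difference, limma SE 0.232), Malat1 7.47 lower (SE 0.113) and Rn7sk probe set 10426437 6.32 lower (SE 0.130). As measured, 19 of all 35557 probe sets were lower by at least 6, these 3 included. Gas5 was lower by 2.31 (SE 0.128) with probe set 10351026 and, as measured, by 2.02 (SE 0.131) with 10351037 and 2.78 (SE 0.220) with 10351039. Probe set 10351035 lay below the receptor level in all 6 cortex libraries, so no fold is given. Diluted libraries lay below the receptor level for Malat1, Rn7sk probe set 10595140 and Gas5 probe sets 10351037 and 10351039. These measured differences are thus not exact. Neither is that of Rn7sk probe set 10426437, where diluted library A lay below the receptor level. Diluted libraries B and C exceeded it by only 0.05 and 0.19. The bounds set by that level are at least 47.7-fold for Malat1, at least 77.1-fold for Rn7sk probe set 10595140 and at least 2.61-fold for Gas5 probe set 10351037.

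Of the 7 probe sets, 6 passed the filter on dim probe sets, and all 6 were below the limma threshold of an adjusted p of 0.05, in the direction of lower signal in diluted cortex. That direction was called for 36.7% of the 19531 probe sets tested and the opposite one for 38.0%, and since the members were chosen on these arrays nothing is read from the count. Probe set 10351035 did not reach the filter. The call of Gas5 probe set 10351026 was lost when all 15 arrays were fitted together, with the spread of the cells in the error. The median receptor probe set differed by -0.03 between the labelling methods. Labelling, number of rounds and RNA preparation changed together in this design and cannot be told apart.

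**Figure D2:**
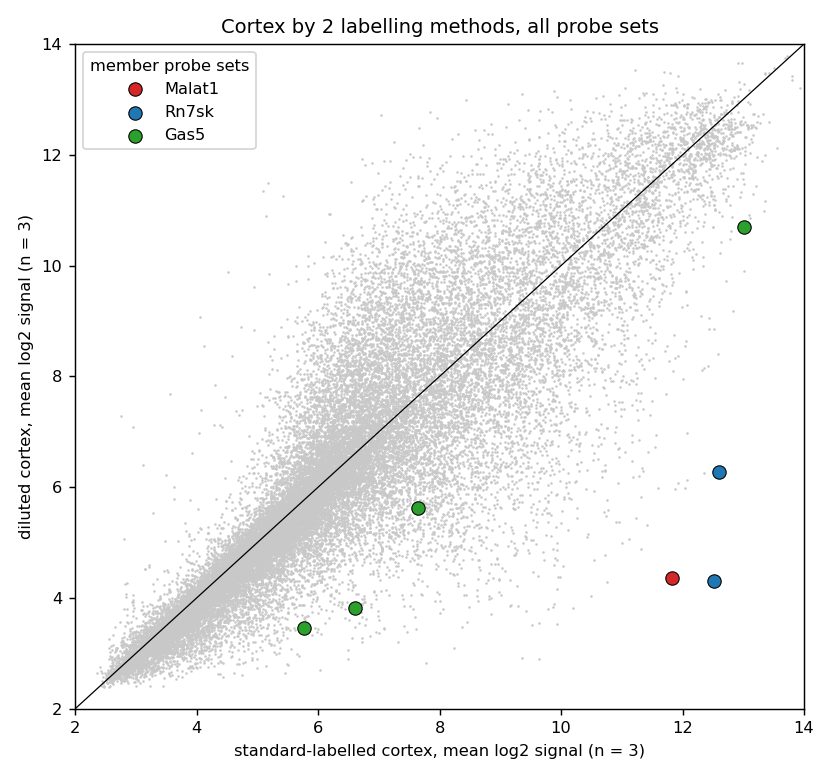
Mean log2 signal in diluted cortex (vertical axis) against standard-labelled cortex (horizontal axis), 3 libraries each, for 35557 probe sets (grey), with the line of equal signal. Malat1 (red) and Rn7sk (blue) lie at 4.31 to 6.28 in diluted against 11.83 to 12.60 in standard-labelled cortex, far below the line, and the 4 Gas5 probe sets (green) lie 2.02 to 2.78 below it.

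JG cells were set against diluted cortex, which was amplified alike. With a change counted where the difference of means lay at least 1 log2 unit beyond the receptor shift of 1.02, 2 member probe sets were lower and 0 higher in JG cells, while 32.2% of all probe sets were lower and 2.52% higher. Both were of Gas5: probe set 10351026 differed by -4.32 and probe set 10351037 by -1.14. For 10351037 all JG cells and all diluted libraries lay below the receptor level, so its count carries no order of levels. Because all 5 JG cells lay below the receptor level, the bound for probe set 10351026 is at least 7.81-fold higher in diluted cortex. Rn7sk probe set 10426437 differed by 1.87, or 0.85 beyond the shift, and the other by 0.56. After quantile normalization the first of these counted as higher, at 2.73.

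MM cells matched diluted cortex more closely for Gas5 probe set 10351026. Probe set 10351026 differed by 0.31 with overlapping values, by 1.45 without MM cell 16 and by -0.30 without MM cell 15. By the same rule, 1 member probe set, 10351037, lay at least 1 log2 unit below the receptor shift of 0.81, against 27.5% of all probe sets, and 0 lay above it, against 2.12%. All values of 10351037 in both groups lay below the receptor level and so have no order; they overlapped through MM cell 15, and without that cell 2 member probe sets were lower.

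Between the cell types, 1 of the 4 Gas5 probe sets differed. The others overlapped below the receptor level, with differences of 0.25 for 10351037, 0.10 for 10351035 and 0.08 for 10351039. Probe set 10351026 was 4.63 higher in MM than in JG cells, at the 99.7th percentile of the differences of all probe sets, and every MM cell lay above every JG cell. Without MM cell 16 the MM mean was 12.15 ± 0.64 (SD over 3 cells) and the difference 5.77. With JG cells held at their receptor level the bound is at least 21.4-fold without MM cell 16. Over all 4 MM cells no bound is given, since MM cell 16 lay at its receptor level. Probe set 10351026 was the 1 member probe set at least 1 log2 unit above the receptor shift of -0.21, against 11.5% of all probe sets. Below it lay 0, against 1.21%. Malat1 (-0.40) and the 2 Rn7sk probe sets (-0.57 and -0.46) overlapped between the cell types, although after quantile normalization Rn7sk probe set 10426437 counted as lower in MM cells, at -1.11.

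In 4 cells Gas5 was at or below the receptor level while ribosomal protein genes were as bright as in cortex. The median over ribosomal protein genes was 12.37, 12.39 and 12.29 in JG cells 6, 7 and 8, as high as the 12.14 to 12.17 of diluted cortex, while Gas5 probe set 10351026 read 5.42 to 6.61 there. JG cells 4 and 5 had ribosomal protein medians of 8.47 and 8.49, with Gas5 below the receptor level too, where values have no order. MM cell 16 had the highest ribosomal protein median of the MM cells, 12.60, and the lowest Gas5. That MM cell also had the lowest share of probe sets over the receptor level, 11.6% against 16.6% to 21.9% in the other 3. Detection was low in JG cells as a group, and its part in the low Gas5 values was not tested.

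**Figure D3:**
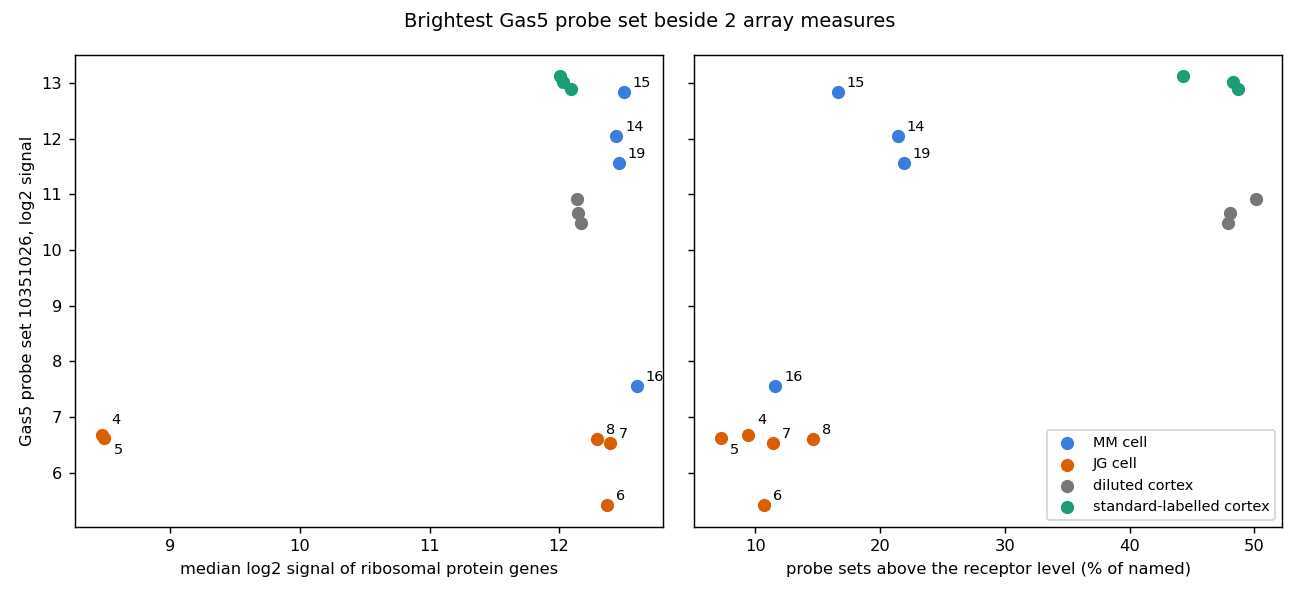
Log2 signal of Gas5 probe set 10351026 (vertical axis) against the median log2 signal of ribosomal protein genes (left) and against the percentage of named probe sets above the receptor level (right), 1 point per array, with cell numbers beside the cells. JG cells 6 to 8 and MM cell 16 combine ribosomal protein medians of 12.29 to 12.60 with Gas5 at 7.56 or less, and all cells with Gas5 above 11 have at least 16.6% of probe sets above the receptor level.

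Small nucleolar RNAs of the host genes could be followed through 1 of 10 listed for Gas5 and 1 of 8 listed for Snhg1. Snord47, cut from a Gas5 intron, measured 7.82, 7.51 and 7.89 in standard-labelled and 6.62, 6.65 and 6.60 in diluted libraries A, B and C. All 9 cells were below the receptor level, MM cells at 3.68 to 5.37 and JG cells at 3.61 to 4.92. In the 3 MM cells with high Gas5 probe set 10351026, Snord47 thus read 3.91, 3.68 and 4.16. Snord22, cut from a Snhg1 intron, measured 6.94 to 7.23 in standard-labelled and 5.86 to 6.02 in diluted cortex, and it read 6.02 to 6.75 over the 9 cells, below the receptor level in all cells and diluted libraries. Both fell in diluted cortex, Snord47 by 1.12 (limma SE 0.116) and Snord22 by 1.13 (SE 0.106), with an adjusted p under the threshold.

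Of the other noncoding snoRNA hosts, 1 exceeded the receptor level in all standard-labelled libraries, Snhg5, and it fell in diluted cortex. Of 20 listed, 7 were measured and 6 tested: Snhg17 (0.76), Snhg16 (0.74) and Dancr (0.61) rose in diluted cortex, Snhg5 fell (-0.57), and Snhg11 and Snhg15 did not pass the threshold. Dancr, Snhg11, Snhg15 and Snhg16 were below the receptor level in every standard-labelled library, where levels have no order, so no fall can be read for them. The median of the 7 was 0.16, beside -0.09 over all probe sets. Of all tested probe sets, 38.0% were called higher and 36.7% lower in diluted cortex. Against diluted cortex, 3 of the 7 lay at least 1 log2 unit below the receptor shift in JG cells and 2 in MM cells. Over all probe sets 32.2% and 27.5% did, so nothing is read from these counts. All 3 counted in JG cells only through the shift: Dancr (-0.64), Snhg5 (-0.10) and Snhg16 (-0.03). So did the 2 in MM cells, Dancr (-0.43) and Snhg16 (-0.38).

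Among other long noncoding RNAs, Tug1 fell most in diluted cortex, by less than Malat1. Of 14 listed, 8 were measured and 4 tested, of which 2 fell and 0 rose, beside 36.7% and 38.0% of all tested probe sets. Tug1, a broadly expressed RNA found in nucleus and cytoplasm, measured 10.97, 10.92 and 10.89 in standard-labelled and 6.88, 6.37 and 6.80 in diluted libraries, a fall of 4.24 (limma SE 0.139), and Airn fell by 0.98. Meg3, an imprinted RNA of embryonic tissue, was not tested in cortex, and it measured 7.83 to 9.61 in MM cells 14, 15 and 19 against 6.26 in MM cell 16, the same 3 cells that held high Gas5. The list's median difference was -0.29.

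Of the other short structural RNAs, 3 exceeded the receptor level in all standard-labelled libraries. There Rmrp averaged 7.19, Rpph1 8.07 and Rny3 7.85, beside a receptor level of 6.30 to 6.51. The other 4 measured lay below it. Of 12 listed, 7 were measured and 4 tested: Rny3, a Y RNA (-1.54), and Rpph1, the RNA of ribonuclease P (-0.63), fell, while Rmrp and Terc did not pass the threshold. The median over the 7 was -0.63, and 36.7% of all tested probe sets were called lower. Single cells held several of them above the receptor level: Rpph1 and Rmrp in all 5 JG and all 4 MM cells, and Rny3 in 5 JG and 2 MM cells.

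**Figure D4:**
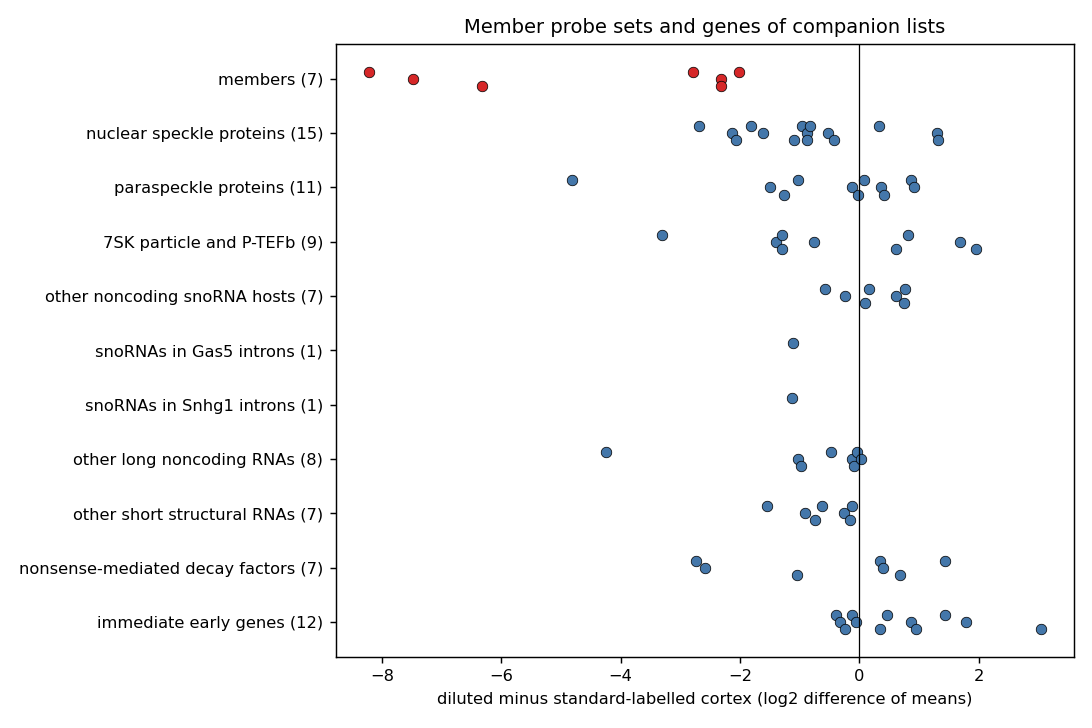
Difference in mean log2 signal between diluted and standard-labelled cortex (horizontal axis) for the 7 member probe sets (red) and for the genes of each list (blue, 1 point per gene, by its brightest probe set). Members span -8.21 to -2.02, and the lowest listed genes are Taf15 at -4.82, Tug1 at -4.24 and Aff4 at -3.30.

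Genes for the protein partners of these RNAs were measured in both cortex preparations, where 36.7% of all tested probe sets were called lower and 38.0% higher. Of 15 nuclear speckle genes tested, 12 fell and 3 rose in diluted cortex (median -0.88), among them Rbm25 (-2.68), Luc7l3 (-2.14), Sf3b1 (-2.07) and Pnn (-1.82). Of 11 paraspeckle genes, 4 fell and 4 rose (median -0.02); Taf15 (-4.82), Sfpq (-1.49), Pspc1 (-1.27) and Ewsr1 (-1.02) fell. Of 9 genes of the 7SK particle and P-TEFb, 5 fell and 4 rose (median -0.76): the scaffold Aff4 (-3.30) and the elongation factor Ell2 (-1.39) fell, and the kinase Cdk9 rose by 1.96 and the capping enzyme Mepce by 1.69. Larp7, which binds the end of 7SK, fell by 0.76. Larp7 averaged 8.87 and Mepce 9.01 in diluted cortex, above the receptor level there.

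In JG cells most of these partner genes did not exceed the receptor level. Of the 9 genes of the 7SK particle and P-TEFb, 0 exceeded it in any JG cell. In at least 1 MM cell 4 did, Larp7 in all 4 MM cells. Of 15 speckle genes, 6 exceeded it in some JG cell and 14 in some MM cell, and of 11 paraspeckle genes 4 and 8. Over all named probe sets the share was 7.23% to 14.6% in a JG cell and 11.6% to 21.9% in an MM cell. That share is per single cell, while the list counts are over any cell of a group, so it is no match for them. Against diluted cortex, 12 of 15 speckle and 8 of 11 paraspeckle genes were lower in JG cells by the rule above. So were 8 of 9 7SK and P-TEFb genes, beside 32.2% of all probe sets. Among the larger differences were Nudt21 at -4.81, Srsf3 at -4.04, Srsf6 at -3.54, Nono at -3.48 and Mepce at -2.46. Hexim2 (0.02), Ccnt2 (0.01), Ccnt1 (-0.75), Srrm1 (-0.52), Srrm2 (-0.39), Son (-0.99) and Pnn (-0.78) counted as lower only through the receptor shift. Ccnt2 lay below the receptor level in every JG cell and diluted library. In MM cells 6 of 15, 8 of 11 and 5 of 9 were lower, beside 27.5% of all probe sets. Several of these also counted only through the shift, among them Pnn (-0.56), Sfpq (-0.46), Nono (-0.53) and Mepce (-0.81). All diluted libraries exceeded the receptor level for 14 of 15 speckle, 10 of 11 paraspeckle and 6 of 9 7SK and P-TEFb genes. Of named probe sets 47.9% to 50.1% exceeded it in a diluted library, so the shares over all probe sets are no match for these lists. The difference between cell types was not tested.

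Decay factors and immediate early genes completed the lists. Of 7 nonsense-mediated decay genes, 4 rose and 3 fell in diluted cortex, with the helicase cofactor gene Upf2 at -2.74, the kinase gene Smg1 at -2.59, Smg9 at 1.44 and Smg6 at -1.05, and the median was 0.34. Of 12 immediate early genes, which mark handling stress, 11 were tested, of which 6 rose and 2 fell in diluted cortex, with Ier2 at 3.04, Dusp1 at 1.78, Junb at 1.43 and Atf3 at 0.95, and a median of 0.41. At least 1 JG cell held 9 of them above the receptor level and at least 1 MM cell held 4. No share of all probe sets was counted over any cell of a group, so nothing is read from this. Of all tested probe sets, 38.0% were called higher and 36.7% lower in diluted cortex. The part of handling in the member values was not tested.

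The probe sets most like each member were found by Pearson's r over the 15 arrays, as a description, since arrays of a group share labelling and detection. Malat1 was followed most closely by probe sets of the kinase anchor gene Akap11 (r = 0.997), of 4932438A13Rik (0.994) and of the endosomal gene Dnajc13 (0.994), with means of 8.96, 10.73 and 11.88 in standard-labelled and 4.62, 4.77 and 5.96 in diluted cortex. Rn7sk probe set 10426437 was followed by Vps13d (0.990), Tbck (0.988) and Syne2 (0.988), which encodes a giant protein of the nuclear envelope. Gas5 probe set 10351026 was followed by 2 probe sets of the ubiquitin conjugating enzyme gene Ube2l3 (0.988 and 0.980) and by Rtraf (0.983), whose JG means were 5.28, 6.02 and 6.25. Between members, r was 0.980 for Malat1 with each Rn7sk probe set, and 0.465 for Malat1 with Gas5 probe set 10351026. With Gas5 probe sets 10351035, 10351037 and 10351039 it was 0.892, 0.808 and 0.939. Outside standard-labelled cortex those Gas5 probe sets lay below the receptor level.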

How the data were processed

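Expression was measured on 15 Affymetrix mouse gene arrays. The deposited matrix holds log2 signals, as its range shows; Affymetrix Expression Console is the tool the submitters' processing notes name, while for its version, summary algorithm and normalization the entry is: not given in the sources used here. They were used as deposited. Arrays have no count depth, and their number limits the precision.

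Of 35557 probe sets, 21789 carry 1 symbol in the platform annotation, 1621 several, and 12147 are unlisted and unnamed. Symbols were looked up in RefSeq of GRCm38.p6, where all 5 members were found. Listed genes were represented by their brightest probe set. Ribosomal protein values are medians over 58 genes. Cells were described by differences of means, without a test. The cortex libraries were compared with limma 3.58.1 (lmFit, eBayes) in R 4.3.3 over 19531 probe sets with at least 1 cortex mean at or over the median cortex signal, with Benjamini-Hochberg adjustment and a threshold of 0.05; the fit was tested on simulated data. Whether the libraries stem from separate animals is not stated, and the p-values then reflect spread between libraries, which may be technical. Named genes were the members, the 3 probe sets most like each, and up to 4 genes per list with the largest difference; Larp7, Meg3, Rmrp, Terc, Snhg11 and Snhg15 were added after their values were seen. Members and lists were chosen with earlier results of these data known. Alternatives were quantile normalization, centring on receptors, no filter, all arrays in 1 fit, a replicate block, medians, another reference cortex and leaving out each array. Other steps used numpy 2.4.6, pandas 2.3.3 and matplotlib 3.10.9 under Python 3.11.15.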

Additional observations from a re-analysis of the deposited data

Results flagged for a closer look

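Gas5 probe set 10351026 measured 5.42 in JG cell 6, far from the 6.53 to 6.68 of the other 4 JG cells, with a gap of 0.884 of the group's range. All 5 values lie below the receptor level. It was 1 of 16 groups of cells examined in this way, and chance flags about 1 in 20.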

How the results depend on the processing

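In the cortex comparison the count of member probe sets called lower was 6 in each alternative except without filter and without standard-labelled library B, where it was 7, and with all 15 arrays in 1 fit, where it was 5. That fit called 3583 probe sets higher and 3868 lower over all, against 7430 and 7169. No member changed sign in the cortex comparison, and no member difference past the fold rule did so between cells and cortex or between cell types. Of all 231 values with cells, apart from the change of reference cortex, 21 changed sign. The 231 also hold differences past the fold rule, so the share inside it is higher. An example is Rn7sk 10595140 in JG cells against diluted cortex (0.56, -0.26 after quantile normalization, -0.50 centred on receptors). Letters A to C did not pair the cortex libraries (correlations of same-letter deviations 0.09, 0.07 and 0.02); with the letter as a replicate block 7461 probe sets were higher and 7170 lower, and the members called lower remained 6 in number. After quantile normalization, 1 member probe set, Rn7sk 10426437, was higher in JG and in MM cells than in diluted cortex (2.73 and 1.62), and the same 1 was lower in MM than in JG cells (-1.11). Against standard-labelled cortex, 7 member probe sets were lower in JG and 7 in MM cells. No share of all probe sets was counted with that reference, so nothing is read from these counts. Labelling method and cells change together in that comparison, and Gas5 probe set 10351035 lay below the receptor level in every group. Leaving out single arrays, the members lower in MM cells than in diluted cortex numbered 1 to 2. The cause of these changes was not tested, apart from what each alternative's construction sets. With the receptor level at the highest receptor probe set, a choice added after seeing the data, Rn7sk 10426437 exceeded it in 0 cells; with the 95th percentile it did so in all 4 MM cells. Levels under the receptor level have no order.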
